A study of Mus musculus with 4 samples.

Results

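Cholesterol synthesis and sterol regulation are described here by 32 genes among the 55536 genes counted, all of which were found in the gene counts of each library by mapping Ensembl identifiers to GRCm38 symbols. They comprise 8 genes of the mevalonate and isoprenoid steps, 11 genes that turn farnesyl diphosphate by way of squalene into cholesterol, 5 genes of the SREBP switch, 4 genes of the liver X receptor (LXR) and its targets, and 4 genes of sterol transport and storage. The list was drawn up from the functions of the genes, with earlier results of these data known.

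The cells were primary fibroblasts, cultured from clipped ears of C57BL/6 mice in DMEM with fetal calf serum and treated for 48 h with KN93, an inhibitor of CaM kinase II, to synchronise the cell cycle. All 4 libraries share this background. AF357425, the mouse counterpart of SNORD113-6, is a C/D box small nucleolar RNA of the imprinted Dlk1-Dio3 region. The sample characteristics describe AF357425-High as overexpression and AF357425-Low as inhibition, while the treatment protocol names a 24 h transfection with gapmers against AF357425 or with a scrambled control, so how the High state was made is not settled by the labels. Each state was sequenced as whole-cell RNA and as RNA recovered with an antibody against fibrillarin, the methyltransferase that C/D box small nucleolar RNAs guide, and each of these 4 groups is 1 library. How many animals or cultures stand behind a library was not stated in the labels.

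Animal cells build cholesterol from acetyl-CoA by way of mevalonate, farnesyl diphosphate, squalene and lanosterol. When membrane sterol falls, the escort protein SCAP carries the transcription factor SREBP-2 from the endoplasmic reticulum to the Golgi, where it is cut and released to switch on the genes of synthesis, and INSIG proteins hold this complex back when sterol is plentiful. Oxysterols that build up with excess cholesterol activate LXR, which drives export through ABCA1 and ABCG1. Fibroblasts both make cholesterol and take it up from serum lipoproteins, and their NPC1 and NPC2 proteins release it from lysosomes.

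SREBP acts at promoters beside the factors NF-Y and Sp1, so the promoter sequences are given before the counts. RefSeq promoter windows of GRCm38.p6, from 250 bases before to 50 bases after an annotated transcript start, were at hand for 26 of the 32 members in 34 windows, and 5 members had several. Fdps, Fdft1, Sqle, Abcg1, Npc1 and Stard4 had no window. The sterol regulatory element (SRE) was searched as TCACCCCAC, with TCACNCCAC as a looser form that contains it, on both strands. Hmgcs1, which encodes cytosolic HMG-CoA synthase, was the only 1 of the 26 with either form, whereas 0.614% of the 27025 genes with a window held the SRE and 1.44% held the looser form. The stretch around it is shown because it is the only SRE match among the members. It runs from 157 to 109 bases before the start, at chr13:119690194-119690242 on the plus strand, with the SRE in capitals.
Hmgcs1 SRE: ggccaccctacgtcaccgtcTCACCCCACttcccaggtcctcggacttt

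The NF-Y box CCAAT, searched on both strands, was present for 22 of 26 members (84.6%), against 41.1% of all genes with a window and 43.1% of the 9531 genes that were also measured in whole-cell RNA. The Sp1 box GGGCGG was present for 23 members (88.5%), against 38.2% of all genes and 70.3% of those measured. The E-box CACGTG was present for 6 members (23.1%), namely Abca1, Dhcr7, Hsd17b7, Insig1, Sc5d and Scap, against 8.09% of all genes and 1141 of the 9531 measured. The LXR repeat, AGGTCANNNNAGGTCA, was found for 0 members and for 0.0148% of all genes. A match describes only the letters of these windows. The NF-Y boxes below belong to the 4 enzymes with the largest whole-cell ratios described further on, a choice made after their values were seen. They lie at chr3:89454385-89454429 for Pmvk, chr10:76531523-76531567 for Lss, chr13:8885572-8885605 for Idi1 and chr13:119690286-119690330 for Hmgcs1, each printed from the plus strand, on which these genes are transcribed. Capitals mark the box, which reads ATTGG where it lies on the other strand.
Pmvk NF-Y box: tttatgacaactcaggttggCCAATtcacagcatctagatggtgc
Lss NF-Y box: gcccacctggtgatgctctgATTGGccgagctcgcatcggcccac
Idi1 NF-Y box: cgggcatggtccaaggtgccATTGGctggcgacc
Hmgcs1 NF-Y box: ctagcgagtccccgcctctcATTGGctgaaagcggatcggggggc
The first base of the box stood 136 bases before the start in Pmvk, 62 in Lss, 14 in Idi1 and 45 in Hmgcs1. Hmgcs1 and Idi1 held further boxes in the same windows.

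**Figure D1:**
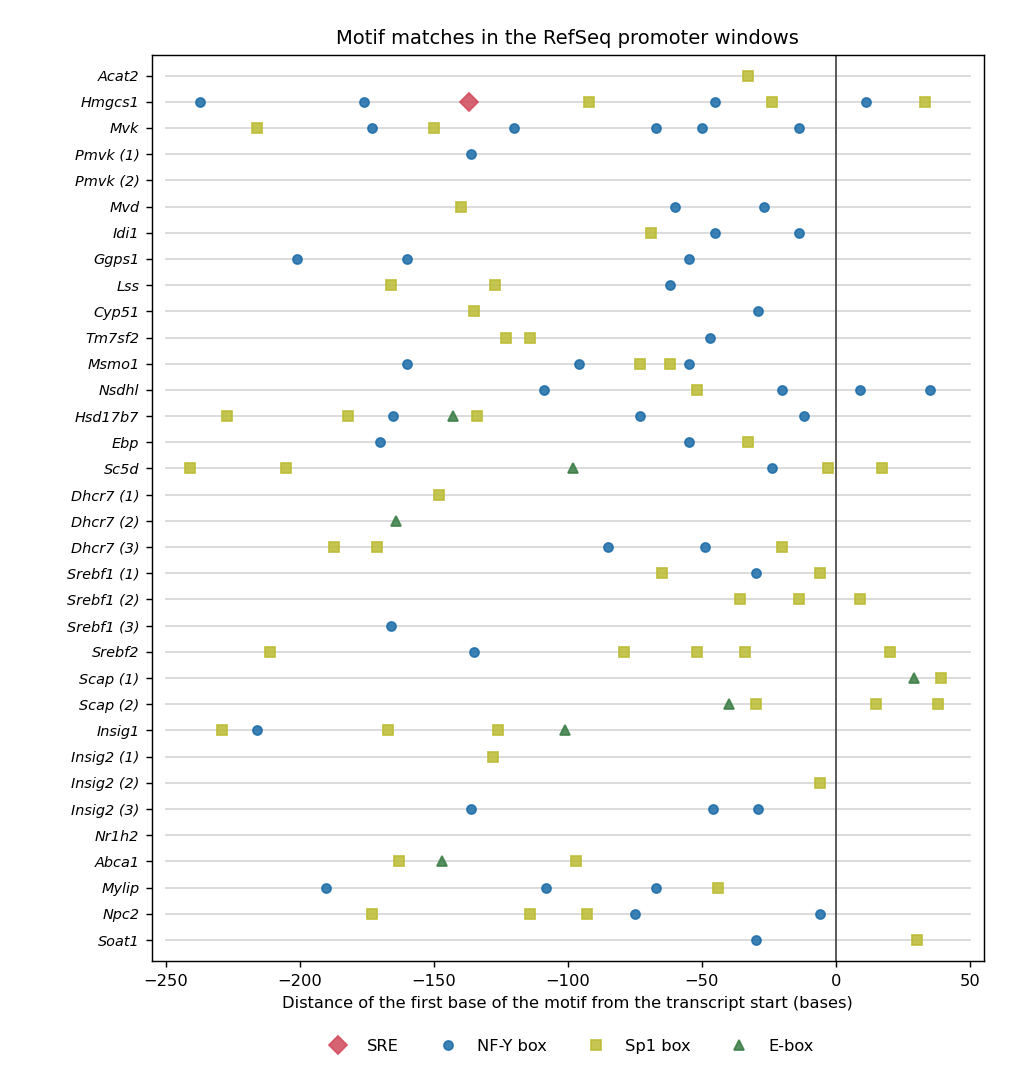
Positions of SRE, NF-Y, Sp1 and E-box matches in the 34 promoter windows of 26 members, with distance from the transcript start in bases on the horizontal axis and 1 row per window (numbered where a gene has several). NF-Y and Sp1 matches occur in most rows, and the SRE match occurs only in the row of Hmgcs1.

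Srebf2 also hosts a microRNA, miR-33, which is known to repress Abca1 and other genes of sterol export. Its sequences are shown because Srebf2 and Abca1 are both members. They lie within the span of Srebf2 (chr15:82147269-82205379), at chr15:82198127-82198147 and chr15:82198167-82198188 on the plus strand, and the seed, bases 2 to 8, is in capitals.
mmu-miR-33-5p: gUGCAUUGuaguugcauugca
mmu-miR-33-3p: cAAUGUUUccacagugcaucac
The gene Mir33 itself had 0 reads in all 4 libraries.

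The whole-cell libraries held 22082565 gene-assigned reads (AF357425-High) and 21693030 (AF357425-Low), and the pulldowns held 25857770 and 27832061. Mitochondrial ribosomal RNA took 63.4% and 59.8% of the pulldown reads and at most 0.0926% of the whole-cell reads. AF357425 had 0 reads in each library, which allows up to 0.138 counts per 1e6 gene-assigned reads (CPM) in whole-cell RNA and 0.116 CPM in the pulldowns, so the labelled states could not be checked by their target. The 7 fibroblast markers were all detected and summed to 9207 and 10464 CPM in whole-cell RNA, while Krt14 and Krt1 of keratinocytes, Adgre1 and Cd3e of leukocytes and Ckm of muscle were at 0 there. Keratinocyte, leukocyte, endothelial, adipocyte, muscle and Schwann cell lists each summed to at most 6.11 CPM. Chondrocyte markers summed to 262 CPM in AF357425-High and 185 CPM in AF357425-Low whole-cell RNA, and to 111 and 136 CPM in the pulldowns. Sox9 made up most of the whole-cell sums, with 169 and 148 CPM. Col2a1 had 87.0 and 35.3 CPM there, and Cnmd had 4.48 and 0.645 CPM. By the interval rule given below, Col2a1 and Cnmd lay wholly beyond 2-fold in whole-cell RNA, unlike any sterol gene, and held 0 in the pulldown. The part of these markers in the results on sterol genes was not tested.

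Together the 32 genes took 57735 reads (2615 CPM) in AF357425-High whole-cell RNA and 51425 reads (2371 CPM) in AF357425-Low. In the pulldowns they took 20966 reads (811 CPM) and 20520 reads (737 CPM). The sterol genes were thus a small and similar fraction of whole-cell RNA in both states and a smaller fraction of what was recovered with fibrillarin. Because the annotation gives the span of a gene and not its transcript length, levels are compared between libraries and never between genes.

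**Figure D2:**
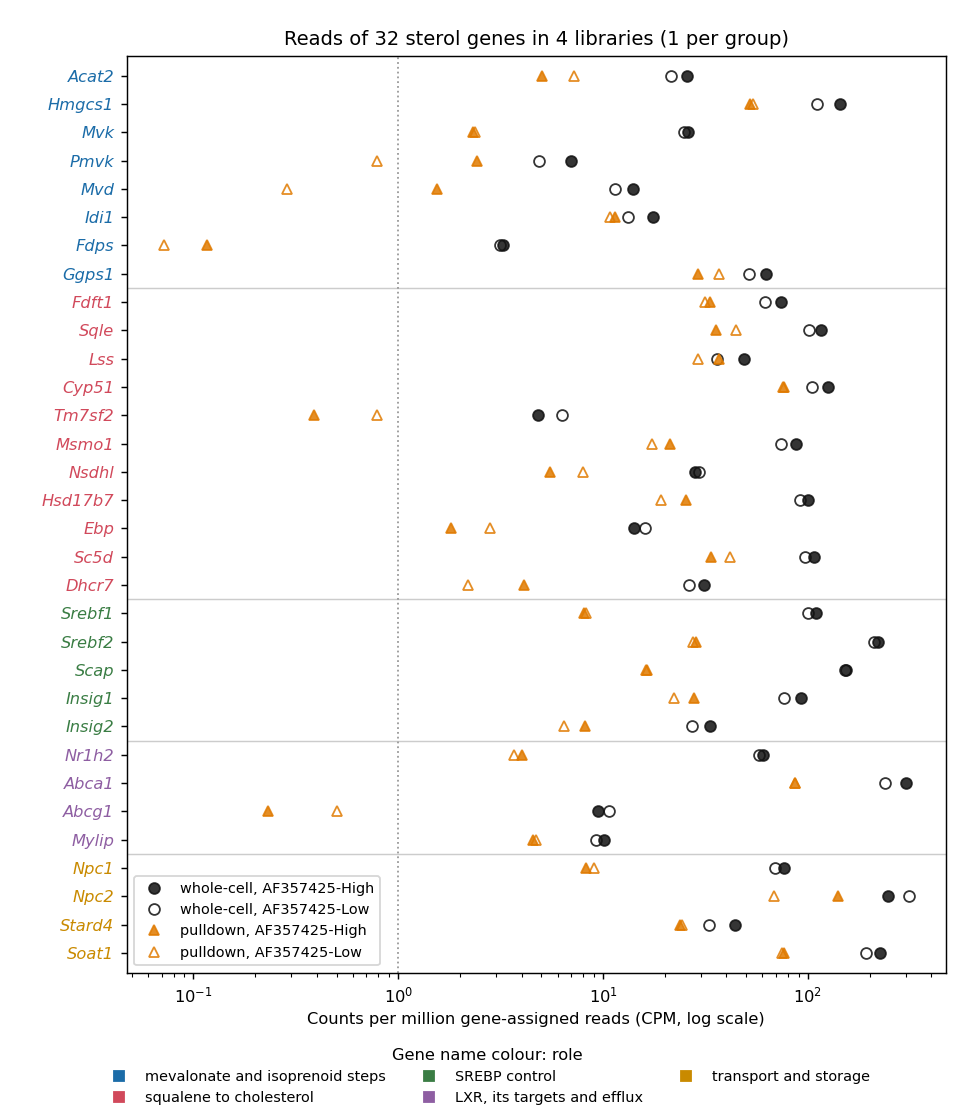
Reads of each of the 32 genes in counts per 1e6 gene-assigned reads (CPM, log axis) in 4 libraries, 1 point per library, with gene names coloured by role. The circles of the 2 whole-cell libraries lie close together in every row, and the pulldown triangles lie to their left; the dotted line marks 1 CPM.

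In whole-cell RNA the enzymes of cholesterol synthesis tended to be modestly higher in the AF357425-High library. Ratios are log2 of AF357425-High over AF357425-Low after TMM scaling, with an exact 95% interval that covers counting error only; with 1 library per group they compare libraries and carry no test between states. All 32 genes were measured, meaning that the pair averaged 1 CPM or more. Their median was 0.15, from -0.46 to 0.45, against -0.01 over the 13519 genes measured. No member had an interval wholly beyond 2-fold, a line passed upward by 0.111% of all genes and downward by 0.133%. The interval lay above 0 for 16 members (18.0% of all genes did) and below 0 for 3 (20.5% of all genes), and it held 0 for the other 13. Among genes averaging 5 CPM or more, 16 of 31 members lay above 0 and 3 below, against 20.6% and 24.1% of such genes.

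Of the 8 genes of the mevalonate and isoprenoid steps, 5 lay above 0 and 0 below, with a median of 0.22. Hmgcs1 (ENSMUSG00000093930, chr13:119690351-119708260) had 3163 reads in AF357425-High against 2397 in AF357425-Low, or 143 and 110 CPM, a log2 ratio of 0.31 (0.23 to 0.39). It was among the higher of this branch, above Ggps1 and Acat2. Idi1, the isomerase that makes dimethylallyl diphosphate, had 388 and 286 reads and a ratio of 0.35 (0.13 to 0.57). Pmvk, phosphomevalonate kinase (ENSMUSG00000027952, chr3:89454541-89469014), had only 154 and 106 reads and the largest ratio of the 32 genes, 0.45 (0.08 to 0.82). Ggps1, which makes geranylgeranyl diphosphate for protein prenylation, had 1374 and 1115 reads and a ratio of 0.21 (0.10 to 0.33). Acat2, the cytosolic thiolase of the first step, had 566 and 465 reads and a ratio of 0.19 (0.01 to 0.37), though its span overlaps the pseudogene Gm20591 and its count is uncertain. The remaining 3 enzymes of this branch had intervals that held 0. Mevalonate kinase, Mvk, had 571 and 539 reads and -0.01 (-0.18 to 0.17), Mvd had 309 and 248 reads and 0.23 (-0.02 to 0.47), and farnesyl diphosphate synthase, Fdps, had 72 and 68 reads and -0.01 (-0.51 to 0.49). Signs of Mvk and Fdps this close to 0 turn with the scaling of the libraries.

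Of the 11 genes between squalene synthesis and cholesterol, 6 lay above 0 and 2 below, with a median of 0.14. The genes above 0 included 5 that act on squalene and the early sterols. Squalene synthase, Fdft1, had 1634 and 1344 reads and a ratio of 0.19 (0.09 to 0.30). Sqle, the squalene epoxidase and a control point of the pathway, had 2557 and 2184 reads and a ratio of 0.14 (0.05 to 0.22). Lanosterol synthase, Lss, had 1076 and 778 reads and the largest ratio of this branch, 0.38 (0.24 to 0.51). Cyp51, the lanosterol demethylase, had 2767 and 2265 reads and a ratio of 0.20 (0.12 to 0.28), and Msmo1, a methylsterol oxidase, had 1931 and 1609 reads and 0.17 (0.08 to 0.27). The branch was not uniform, since genes on both sides of 0 act after Cyp51. Tm7sf2, a sterol reductase, had 106 reads in AF357425-High against 137 in AF357425-Low, -0.46 (-0.84 to -0.08), and the isomerase Ebp had 312 and 347 reads, -0.24 (-0.47 to -0.02). Dhcr7, the reductase that completes cholesterol from 7-dehydrocholesterol, had 687 and 569 reads and 0.18 (0.02 to 0.34). Nsdhl (-0.14, -0.30 to 0.03), Hsd17b7 (0.06, -0.03 to 0.15) and Sc5d (0.07, -0.01 to 0.16) each had intervals that held 0. Summed over all 19 enzymes, reads made up 1035 CPM in AF357425-High and 885 CPM in AF357425-Low, a log2 ratio of 0.16 (0.13 to 0.19), or 1.12-fold.

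Among the 5 genes of the SREBP switch, the INSIG genes lay above 0 and the others held 0. Insig1, itself a known SREBP target, had 2045 and 1663 reads and a ratio of 0.21 (0.11 to 0.30), and Insig2 had 735 and 588 reads and 0.23 (0.07 to 0.39). Srebf2, which encodes SREBP-2, had 4831 and 4582 reads (219 and 211 CPM) and -0.01 (-0.07 to 0.04). Scap had 3385 and 3285 reads and -0.05 (-0.12 to 0.02), and Srebf1, which encodes SREBP-1, had 2424 and 2179 reads and 0.06 (-0.02 to 0.15). The signs of Srebf2 and Scap turn with the scaling.

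The LXR group was mixed. Abca1, the exporter of cholesterol to lipid-poor apolipoprotein A-I, had 6652 and 5165 reads (301 and 238 CPM) and a ratio of 0.27 (0.22 to 0.33). Abcg1, the exporter to high-density lipoprotein and likewise an LXR target, had 208 and 231 reads and -0.24 (-0.52 to 0.03). Nr1h2, which encodes LXR-beta, was near 0 with 1334 and 1253 reads (-0.11 to 0.11), and Mylip, an LXR target that sends lipoprotein receptors to degradation, had 223 and 200 reads and 0.07 (-0.22 to 0.35). The group therefore showed no shared direction in whole-cell RNA.

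In transport and storage, Stard4, a cytosolic sterol carrier, had 973 and 716 reads and a ratio of 0.35 (0.21 to 0.49). Soat1, the enzyme that esterifies cholesterol for storage, had 4938 and 4154 reads and 0.16 (0.10 to 0.22). Npc1, the lysosomal membrane transporter, had 1694 and 1498 reads and 0.09 (-0.01 to 0.19). Npc2 stood apart from these. This soluble lysosomal protein hands cholesterol to NPC1, and its gene (ENSMUSG00000021242, chr12:84754559-84773112) had 5443 reads in AF357425-High against 6720 in AF357425-Low, or 246 and 310 CPM, a ratio of -0.39 (-0.45 to -0.34) that was 1.31-fold lower in AF357425-High.

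**Figure D3:**
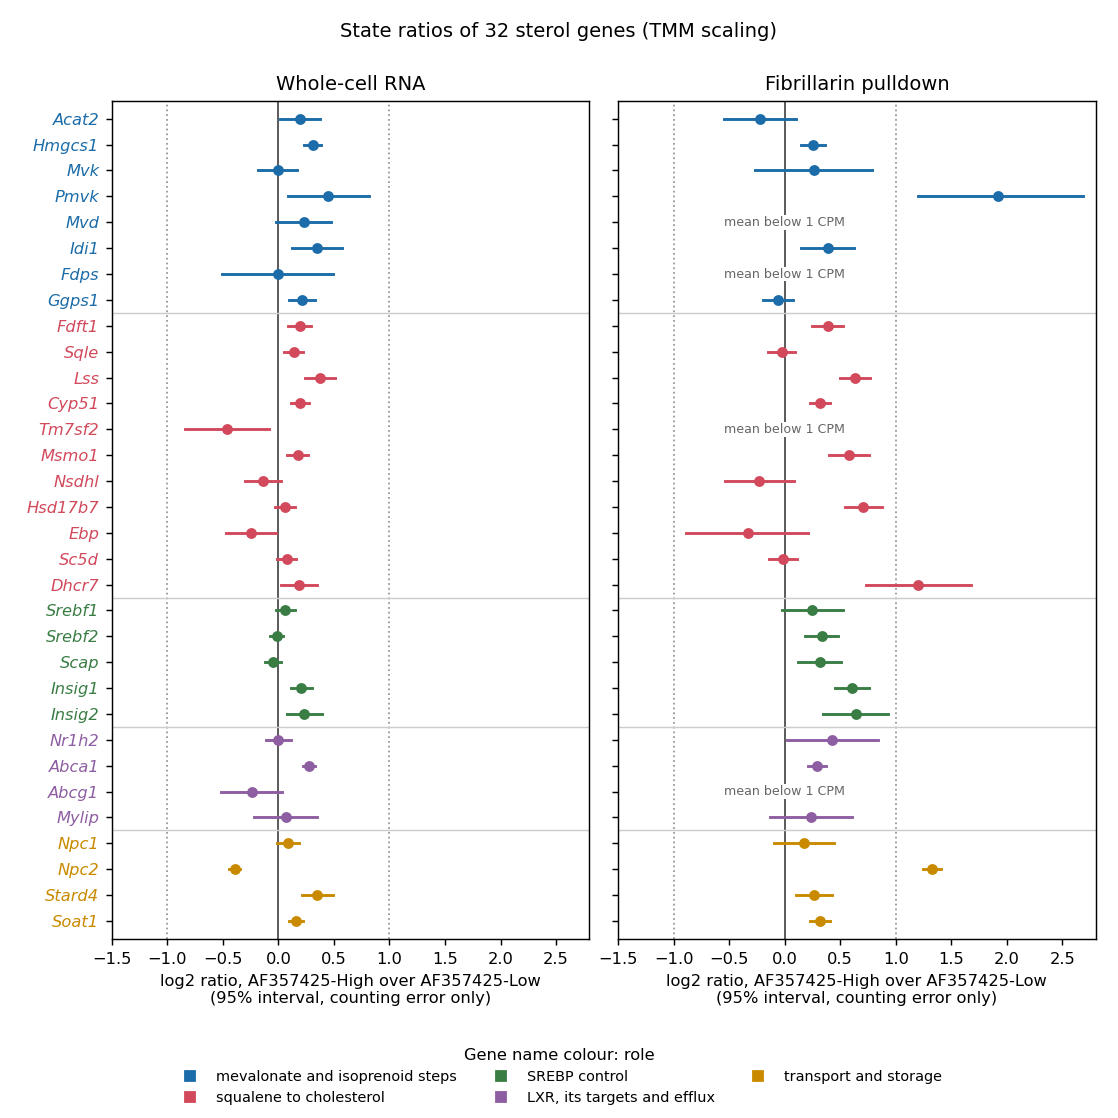
Log2 ratio of AF357425-High over AF357425-Low for each of the 32 genes in whole-cell RNA (left) and in the fibrillarin pulldown (right), TMM scaled, with bars for the 95% interval of counting error and dotted lines at 2-fold; 1 library per group. Whole-cell ratios run from -0.46 to 0.45, and in the pulldown only Pmvk and Npc2 have intervals wholly beyond 2-fold, which neither has with library totals.

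In the fibrillarin pulldown the members leaned the same way, with a larger median, but all genes spread more widely there too. After TMM scaling, 28 of the 32 genes were measured, since Mvd, Fdps, Tm7sf2 and Abcg1 had a mean below 1 CPM. The median was 0.32, from -0.33 to 1.92, against -0.01 over the 10736 genes measured. Pmvk and Npc2 had intervals wholly above 2-fold, where 3.43% of all genes stood, and 0 members lay wholly below 2-fold, where 2.90% stood. The interval lay above 0 for 18 members and below 0 for 0, against 31.5% and 32.5% of all genes. Among genes averaging 5 CPM or more, 15 of 22 members lay above 0 and 0 below, against 35.6% and 34.5%. This lean depends on the scaling. With library totals in place of TMM, all genes shift by -0.29, the members' median becomes 0.02, 8 members lie above 0 and 6 below, and 0 pass 2-fold. Directions in the pulldown are therefore relative to the typical gene there.

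Npc2 had 3630 pulldown reads in AF357425-High against 1907 in AF357425-Low, or 140 and 68.5 CPM, a log2 ratio of 1.33 (1.25 to 1.41), or 2.51-fold. It was thus the higher of the pair in the pulldown and the lower in whole-cell RNA. With library totals its pulldown ratio stays positive but its interval no longer lies wholly beyond 2-fold. Pmvk had 63 and 22 reads, or 2.44 and 0.79 CPM, and a ratio of 1.92 (1.20 to 2.69). The count behind Pmvk is low. With library totals its interval is no longer wholly beyond 2-fold, and where an average of 5 CPM is required it is not measured. Dhcr7 came next with 106 and 61 reads and a ratio of 1.20 (0.73 to 1.68), whose interval reached inside 2-fold.

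The enzymes of synthesis were spread more widely in the pulldown than in whole-cell RNA, as were all genes. Of all genes, 3.43% passed 2-fold upward and 2.90% downward in the pulldown, against 0.111% and 0.133% in whole-cell RNA. Of the 16 enzymes measured, 9 lay above 0 and 0 below, against 31.5% and 32.5% of all genes. Hsd17b7, a reductase of sterol demethylation, had 658 and 532 reads and a ratio of 0.71 (0.54 to 0.88), Lss had 954 and 811 reads and 0.64 (0.50 to 0.77), and Msmo1 had 548 and 484 reads and 0.58 (0.40 to 0.76). Fdft1 (0.39, 0.25 to 0.52), Idi1 (0.39, 0.15 to 0.62), Cyp51 (0.32, 0.23 to 0.41) and Hmgcs1 (0.25, 0.14 to 0.36) lay above 0 by less, and Hmgcs1 turns negative with library totals. After TMM scaling other deeply counted enzymes sat at 0, while with library totals Sqle was at -0.32, Sc5d at -0.31 and Ggps1 at -0.35. Sqle had 919 reads in AF357425-High against 1237 in AF357425-Low, -0.03 (-0.15 to 0.10), Sc5d had 871 and 1162 reads, -0.01 (-0.14 to 0.11), and Ggps1 had 748 and 1029 reads, -0.06 (-0.20 to 0.08). Acat2 (130 and 200 reads), Nsdhl (143 and 221), Ebp (47 and 78) and Mvk (60 and 66) had wide intervals that held 0. Summed over the 19 enzymes, the pulldowns held 379 CPM in AF357425-High and 384 CPM in AF357425-Low, which TMM scaling turns into a ratio of 0.27 (0.23 to 0.31).

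All 5 genes of the SREBP switch were positive in the pulldown, and 4 had intervals above 0. Insig2 had 211 and 179 reads and a ratio of 0.64 (0.34 to 0.93), and Insig1 had 716 and 621 reads and 0.61 (0.45 to 0.76). Srebf2 had 732 and 767 reads and 0.33 (0.19 to 0.48), Scap had 425 and 451 reads and 0.32 (0.12 to 0.51), and Srebf1 had 208 and 231 reads and 0.25 (-0.03 to 0.53). The INSIG genes were thus the highest of this group in both kinds of library. Of the LXR group, Nr1h2 had 104 and 102 reads and a ratio of 0.43 (0.02 to 0.84), Abca1 had 2233 and 2409 reads and 0.29 (0.21 to 0.38), and Mylip had 117 and 131 reads and 0.24 (-0.13 to 0.61). In transport and storage, Soat1 had 1970 and 2084 reads and 0.32 (0.23 to 0.41), Stard4 had 612 and 673 reads and 0.26 (0.10 to 0.42), and Npc1 had 214 and 250 reads and 0.18 (-0.09 to 0.45). With library totals the signs of Srebf1, Abca1, Mylip, Npc1, Stard4 and Mvk turn negative.

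The whole-cell and pulldown ratios come from separate pairs of libraries. Of the 28 members measured in both, 13 (46.4%) had intervals above 0 in both, against 8.08% of the 10366 genes measured in both, and 0 had intervals below 0 in both, against 8.43%. Npc2 was the only member with an interval below 0 in whole-cell RNA and above 0 in the pulldown, as were 6.71% of all genes. The sign matched for 19 members (67.9%), against 52.6% of all genes. All these counts are after TMM scaling and depend on it. With library totals only 8 members lay above 0 in the pulldown and 6 lay below, so at most 8 could lie above 0 in both.

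**Figure D4:**
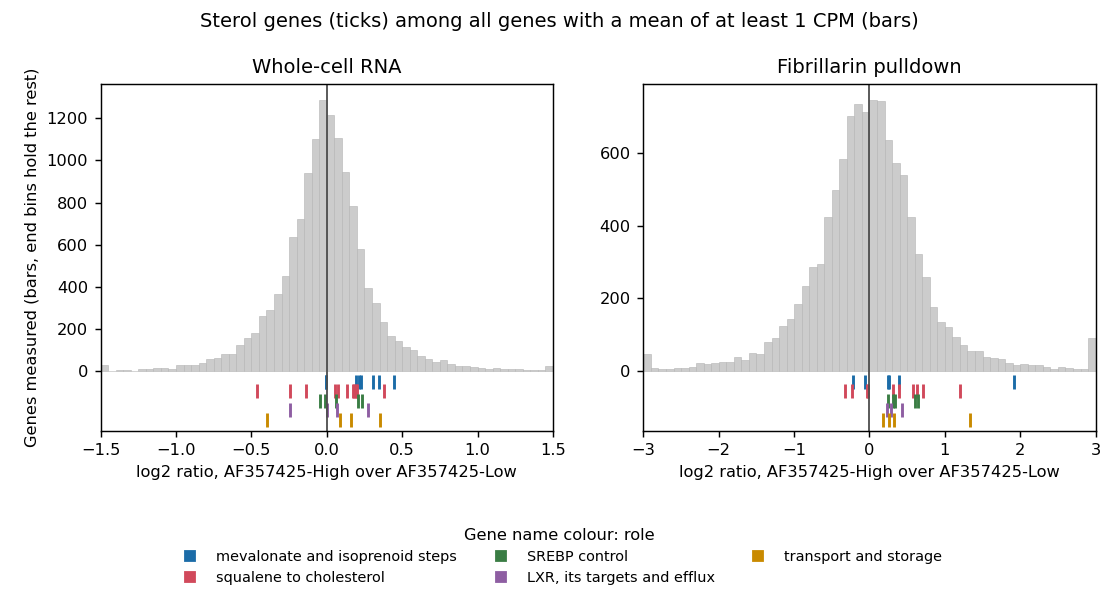
Distribution of the log2 ratio of AF357425-High over AF357425-Low over all measured genes (grey bars, with the end bins holding values beyond the axis) and the values of the sterol genes (coloured ticks by role) in whole-cell RNA (left, 32 of 13519 genes) and in the pulldown (right, 28 of 10736). The ticks centre to the right of 0 in both panels, with medians of 0.15 and 0.32 against -0.01 for all genes; the horizontal axes differ in range, and with library totals the pulldown median is 0.02 while all genes shift by -0.29.

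Pulldown against whole-cell RNA, by library totals, describes how much of each RNA was recovered with fibrillarin within a state. Every one of the 32 genes was a smaller fraction of the pulldown than of whole-cell RNA in both states, and 23 were lower with intervals wholly beyond 2-fold in both, while 0 were higher. Over the 12795 genes measured, 59.7% were lower and 1.56% higher by this rule, so the members stood near the common level, with a median over both states of -2.06 against -1.98. The mitochondrial ribosomal RNA of the pulldowns enters this scaling. With totals that leave it out, all genes shift by 1.38, and 11 members and 23.2% of all genes are lower.

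Members differed in recovery over a wide range. Lss (log2 pulldown over whole-cell CPM of -0.40 in AF357425-High and -0.30 in AF357425-Low), Idi1 (-0.61 and -0.29), Cyp51 (-0.71 and -0.47) and Stard4 (-0.90 and -0.45) were among the 5 best recovered in both states. At the other end were Fdps (-4.81 and -5.45), with 3 and 2 pulldown reads, Mvd (-3.18 and -5.31), with 40 and 8, Abcg1 (-5.34 and -4.40), with 6 and 14, and Nr1h2 (-3.91 and -3.98), with 104 and 102. All 5 genes of the SREBP switch were lower beyond 2-fold, with Srebf1 at -3.77 and -3.60, Scap at -3.22 in both states, Srebf2 at -2.95 and -2.94 and Insig1 at -1.74 and -1.78. The regulators Srebf1, Scap and Srebf2 were recovered less than the typical gene, whose medians were -2.16 in AF357425-High and -1.76 in AF357425-Low.

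**Figure D5:**
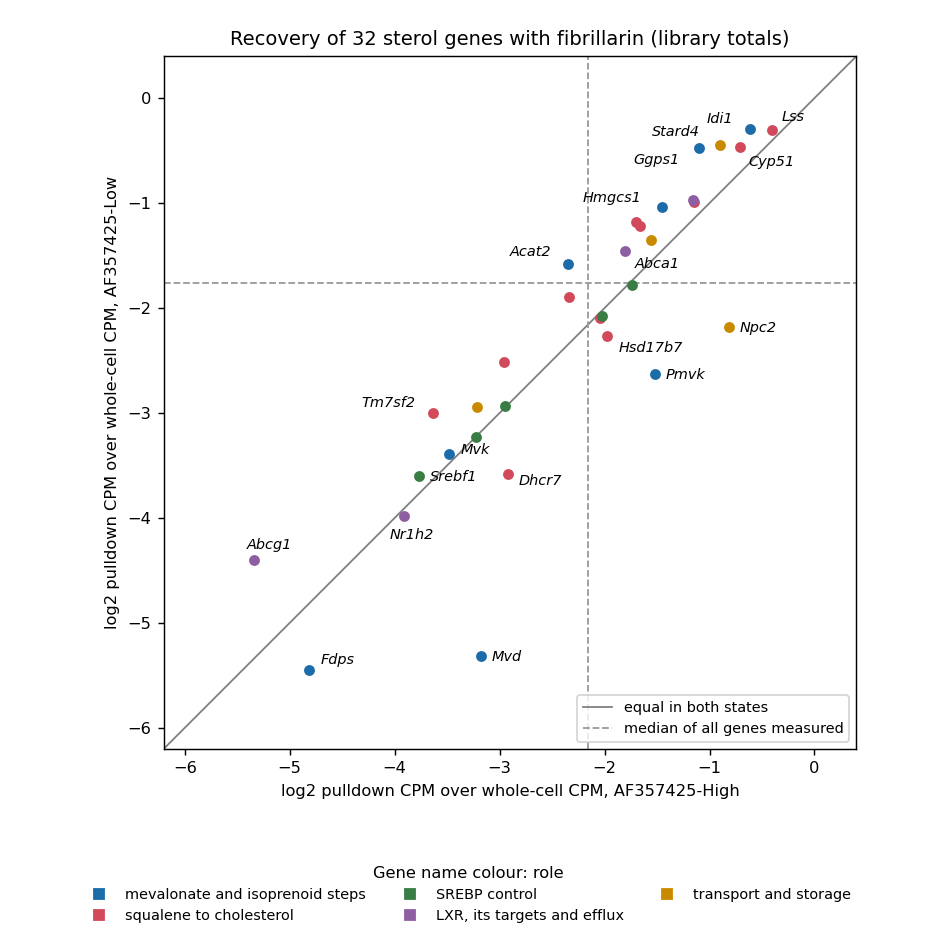
Log2 of pulldown CPM over whole-cell CPM for each of the 32 genes, AF357425-High on the horizontal and AF357425-Low on the vertical axis, coloured by role; dashed lines mark the medians of all measured genes (-2.16 and -1.76) and the diagonal marks equal recovery. All points lie below 0 on both axes, and Npc2, Pmvk and Mvd lie farthest below the diagonal.

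The change of this recovery between states was taken as the pulldown ratio minus the whole-cell ratio, where each library had 10 reads or more for the gene. It shares its libraries with the ratios above and is no further evidence for them. Of 29 members measured, 1 was higher by an interval wholly beyond 2-fold, against 2.65% of all 11356 genes, and 0 were lower, against 1.66%. The interval lay above 0 for 13 (28.5% of all genes) and below 0 for 3 (28.2%), with a median of 0.17 against -0.00. The 1 called member was Npc2, at 1.72 (1.63 to 1.82), or 3.30-fold. On the log2 scale, pulldown CPM of Npc2 over its whole-cell CPM was -0.81 in AF357425-High and -2.18 in AF357425-Low, below the median of all genes in AF357425-Low and above it in AF357425-High. Pmvk had 1.47 (0.68 to 2.26), Dhcr7 1.02 (lower bound 0.53) and Hsd17b7 0.65 (0.46 to 0.84). The 3 members below 0 were Acat2 at -0.41 (-0.78 to -0.05), Ggps1 at -0.27 (-0.45 to -0.09) and Sqle at -0.16 (-0.31 to -0.02). With library totals all genes shift by -0.36. The members' count above 0 then falls to 4 and that below 0 rises to 11, while Npc2 is still past 2-fold.

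Genes of neighbouring pathways, 73 in 6 lists, gave about as many values below as above 0. In whole-cell RNA 68 were measured, 14 lay above 0 and 18 below, with a median of -0.01. Of all genes in whole-cell RNA, 18.0% lay above 0 and 20.5% below. In the pulldown 64 were measured, 16 lay above 0 and 23 below, 2 were lower beyond 2-fold, and the median was -0.07. Of all genes in the pulldown, 31.5% lay above 0, 32.5% below, and 2.90% were lower beyond 2-fold. The counts of each list below are to be read beside these shares. The pulldown ratios of these lists are TMM scaled too, and each shifts by -0.29 with library totals. Whether the members and these lists differ was not tested.

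Among 9 genes of SREBP processing and sterol-regulated degradation, 2 lay above 0 and 4 below in whole-cell RNA, and 1 above and 5 below in the pulldown. Mbtps2, the site-2 protease that releases SREBP from the membrane, had -0.17 (-0.33 to -0.01) in whole-cell RNA and -0.81 (upper bound -0.63) in the pulldown. Erlin1, a membrane scaffold of the degradation machinery, had -0.58 (-0.76 to -0.41) in the pulldown. Rnf139, a ubiquitin ligase of the same membrane, had 0.25 (0.09 to 0.42) in whole-cell RNA and -0.37 (-0.64 to -0.11) in the pulldown. Mbtps1, the other SREBP protease of the list, had -0.07 (-0.12 to -0.01) in whole-cell RNA. In the pulldown it had -0.15 (-0.31 to 0.004), an interval that held 0. Of the 2 proteases only Mbtps2 thus lay below 0 in the pulldown, where Srebf2 and Scap lay above it.

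Of 14 genes of fatty acid synthesis, which SREBP-1 controls, 5 lay above 0 and 3 below in whole-cell RNA, and 5 above and 1 below in the pulldown. Scd1, the stearoyl-CoA desaturase, had 0.34 (0.29 to 0.40) in whole-cell RNA and 0.99 (0.93 to 1.05) in the pulldown. Elovl6, a fatty acid elongase, had 0.25 (0.13 to 0.37) in whole-cell RNA and 0.17 (0.06 to 0.27) in the pulldown. Acly, which supplies cytosolic acetyl-CoA, had -0.12 (-0.17 to -0.08) in whole-cell RNA and 0.72 (0.58 to 0.87) in the pulldown. Lpin1, a phosphatidate phosphatase, had 0.15 (0.05 to 0.25) and 0.81 (0.56 to 1.05). Me1 had 0.11 (0.004 to 0.21) and 0.22 (0.11 to 0.32). Scd1, Elovl6, Lpin1 and Me1 thus lay above 0 in both kinds of library and Acly only in the pulldown. Other genes of the list went the other way or held 0. In whole-cell RNA Fads1 had -0.13 (-0.23 to -0.03), Fads2 -0.16 (-0.28 to -0.04) and Acss2 -0.25 (-0.58 to 0.09). Gpam had -0.36 (-0.60 to -0.12) in the pulldown. Fasn held 0 in both, at -0.02 (-0.05 to 0.02) in whole-cell RNA and -0.14 (-0.29 to 0.01) in the pulldown. The list's medians were 0.03 in both. With library totals the pulldown sign of Elovl6 turns, at 54.0 CPM in AF357425-High against 59.1 CPM in AF357425-Low.

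Of 15 genes of sterol uptake and transport, 1 lay above 0 and 3 below in whole-cell RNA, and 4 above and 8 below in the pulldown. Vldlr, a lipoprotein receptor, had 312 pulldown reads in AF357425-High against 1017 in AF357425-Low, -1.30 (-1.49 to -1.12), and -0.42 (-0.75 to -0.10) in whole-cell RNA. Gramd1c, of a family of sterol carriers at membrane contacts, had 9 and 58 pulldown reads and -2.29 (-3.49 to -1.26). Lrp1, a large endocytic receptor, had -0.28 (-0.30 to -0.27) in whole-cell RNA and 0.47 (0.41 to 0.53) in the pulldown. Stard5, a relative of Stard4, had 0.48 (0.31 to 0.64) in whole-cell RNA and 0.47 (0.22 to 0.72) in the pulldown. In whole-cell RNA the receptors Vldlr and Lrp1 were thus lower in AF357425-High and the carrier Stard5 higher, while in the pulldown Lrp1 stood above 0.

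Of the oxysterol and LXR partner genes, 2 of 6 lay above 0 and 2 below in whole-cell RNA, and 0 of 4 above and 2 below in the pulldown. Nr1h3, which encodes LXR-alpha, had 0.62 (0.12 to 1.15) in whole-cell RNA. Ch25h, which makes 25-hydroxycholesterol, an inhibitor of SREBP processing, had -0.33 (-0.64 to -0.02) in whole-cell RNA and, with 68 and 208 reads, -1.21 (-1.63 to -0.81) in the pulldown. Ch25h was therefore lower in AF357425-High in both kinds of library, and its pulldown interval crossed the 2-fold line.

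Of 15 genes of prenylation, dolichol and ubiquinone, which draw on the same isoprenoids, 1 lay above 0 and 3 below in whole-cell RNA, and 3 of 13 above and 5 below in the pulldown. Coq2, of ubiquinone synthesis, had -0.37 (-0.59 to -0.16) in whole-cell RNA and -0.71 (-1.14 to -0.29) in the pulldown, and Rabggtb, a subunit of the Rab prenyl transferase, had -1.01 (-1.21 to -0.82) in the pulldown. Coq2 and Rabggtb were thus lower in AF357425-High where Hmgcs1 and Idi1 were higher, but the list was not uniform. Nus1 was higher in both kinds of library, at 0.23 (0.16 to 0.30) in whole-cell RNA and 0.36 (0.29 to 0.44) in the pulldown. Icmt had 0.31 (0.11 to 0.50) in the pulldown. Zmpste24 had -0.26 (-0.34 to -0.18) in whole-cell RNA and 0.34 (0.22 to 0.45) in the pulldown. Among 9 cofactor genes of sterol synthesis, 3 lay above 0 and 3 below in whole-cell RNA, where Erg28, a scaffold of sterol demethylation, had 0.39 (0.21 to 0.58), and 3 above and 2 below in the pulldown, where the electron carrier Cyb5b had 0.65 (0.55 to 0.75) and its reductase Cyb5r3 had 0.51 (0.47 to 0.55). In whole-cell RNA Cyb5r3 lay on the other side of 0, at -0.18 (-0.22 to -0.14), and Cyb5b had 0.09 (0.04 to 0.14).

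Counts of some members may include reads of a neighbour or lack reads shared with one, because the labels do not state whether the counting used strand. The spans of Fdft1 (Ctsb), Lss (4930483K19Rik), Tm7sf2 (Vps51), Srebf1 (Rai1), Srebf2 (Mir33), Insig1 (Gm35223) and Npc1 (Rmc1) overlap other annotated genes, as do those of Mvd and Fdps. Their values are uncertain to that extent.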

How the data were processed

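RNA of 4 libraries, 1 per group, was sequenced on DNBseq, with ribosomal RNA depletion of the pulldown samples, per the labels' protocols. The deposited values are counts of reads per gene, not normalized; the authors trimmed with cutadapt 2.4, aligned with STAR 2.6.0c to GRCm38, counted with HTSeq 0.9.1 and list StringTie 1.3.4, per the submitters' processing notes. Annotation and strand setting: not given in the sources used here. Of 55536 identifiers, 55450 had a symbol in the RefSeq-based tables.

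State ratios were scaled with TMM in edgeR 4.0.16 (R 4.3.3); pulldown against whole-cell RNA used library totals. A gene counted as measured where the libraries compared averaged 1 CPM or more. Intervals are exact (Clopper-Pearson) at 95%, and for the change a normal interval over 4 counts with at least 10 reads each. They cover counting error only. A call means an interval wholly beyond 2-fold. With 1 library per group, no test between groups was run and no library could be left out.

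Intervals were tested on simulated data. Alternatives were library totals, the median of ratios of DESeq2 1.42.0, totals without the 20 most abundant genes or without mitochondrial ribosomal RNA, TMM over 4 libraries, other filters and a line of 1.5-fold. Members and lists were chosen with earlier results of these data known. All members are named. Of companion genes, those called are named. Otherwise the rule took, per list and comparison, up to 3 with the largest absolute ratio among those with at least 50 reads in each library compared. Of these the text gives the ones it discusses. Mbtps1, Me1, Fads1, Fads2, Fasn, Gpam, Nus1 and Icmt are named outside this rule.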

Additional observations from a re-analysis of the deposited data

Results flagged for a closer look

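Npc2, the lysosomal cholesterol carrier, had state differences of opposite sign in the 2 kinds of library. Its log2 ratio of AF357425-High over AF357425-Low was -0.39 (-0.45 to -0.34) in whole-cell RNA and 1.33 (1.25 to 1.41) in the pulldown, a difference of 1.72 (1.63 to 1.82). Of the 10366 genes measured in both kinds of library, 6.71% likewise lay below 0 in whole-cell RNA and above 0 in the pulldown. A change wholly above 2-fold was seen for 2.65% of 11356 genes. Each group is 1 library, so the difference of Npc2 was not tested between states, and the intervals cover counting error only.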

How the results depend on the processing

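With 1 library per group no replicate could be left out. No paired analysis was possible because the labels give no replicate numbers. With library totals in the pulldown, the members past 2-fold went from 2 to 0. Those with intervals above 0 went from 18 to 8 and those below 0 from 0 to 6. The members' median went from 0.316 to 0.0212, while all genes shifted by -0.29. For the change between states with library totals, the count above 0 went from 13 to 4 and that below 0 from 3 to 11. The members' median of that change went from 0.17 to -0.19, while all genes shifted by -0.36. With totals without the 20 most abundant genes, 1 member lay below 0 in the pulldown, and with a mean of at least 5 CPM 1 was past 2-fold. A line of 1.5-fold gave 2 members with a higher change in place of 1. For pulldown against whole-cell RNA, TMM over the 4 libraries left 8 members lower in place of 23, with a median of -0.45, and totals without mitochondrial ribosomal RNA left 11, with a median of -0.68; all genes shifted by 1.61 and 1.38. Of 348 values of single members under alternatives, 302 stayed within their counting interval, some with a turned sign near 0. Another 44 left it and 2 (Pmvk and Npc2 in the pulldown) lost the 2-fold line, these 46 all with library totals. The 302 include values under other filters, which cannot change a single ratio: 60 with no filter, 53 at 5 CPM and 26 at 50 reads. With library totals only 43 values stayed within their interval. The median and the counts of members in whole-cell RNA kept their direction in each alternative run.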
